A study of Chlamydomonas reinhardtii with 9 samples.

Results

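Intron-dominated genes are nuclear genes of the green alga Chlamydomonas reinhardtii in which most of the transcribed span is removed by splicing. They were chosen from the gene models in the authors' count files, with no use of read counts. A gene belongs to the set when it has 2 to 20 exon blocks (its exon intervals merged where they overlap), less than 8000 bases of exon, and an intron share of 60% or more. The intron share is the part of the span between the first and the last exon base that lies outside exon blocks. Of 14621 listed genes, 14540 are nuclear, 12230 of these have 2 to 20 blocks and less than 8000 exon bases, and 1031 are intron-dominated, which is 8.43% of the 12230. They were set beside 6765 intron-poor genes with an intron share below 40% from the same 12230. The remaining 4434 genes, with shares of 40% to 60%, are called intermediate.

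Polyadenylated RNA was sequenced from 3 crpaf1-1 libraries, 3 crskip-1 libraries and 3 wild-type libraries, all labelled as strain CC5325. Cells of all 3 genotypes grew in TAP liquid medium with 14 h of light and 10 h of darkness at 22 °C, and were collected in late G1, the growth phase that precedes DNA replication. The study's title links the 2 mutated genes, PAF1 and SKIP, to control of the cell cycle. Total counts per library were 16876166 to 19725439 in crpaf1-1, 13907142 to 16122105 in crskip-1 and 14006299 to 16812251 in wild type, so that 1 CPM (counts scaled to library size) stood for 12.8 to 21.3 counts. The labels do not give the lesion in either mutant or say how many independent mutant lines were used, and neither mutated gene was checked in its own mutant here because the files pair no gene identifier with a name. They also do not say that replicates came from separate cultures, so the p-values measure the spread between libraries.

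A spliceosome recognises the 2 ends and the branch point of an intron, removes it, and joins the flanking exons, mostly while RNA polymerase II is still transcribing the gene. The PAF1 complex travels with elongating RNA polymerase II and is needed for histone modifications over transcribed genes, for passage through the gene body and for transcript end formation in yeast, animals and plants. SKIP, known from yeast as Prp45 and from humans as SNW1, is a component of the activated spliceosome and also takes part in transcription. In the plant Arabidopsis, SKIP has been described both in splicing and together with the PAF1 complex. Genes with much intron have more transcribed and removed bases per base of mature messenger RNA than genes of the same exon length with little.

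The intron-dominated genes were long genes with small exons. Their span had a median of 6358 bases, against 4190 bases in intron-poor genes, while their exon length had a median of 2214 bases, against 3169 bases. They were cut into a median of 12 exon blocks with a mean block length of 185 bases (median over genes), against 5 blocks of 528 bases in intron-poor genes. Introns held a median of 4132 bases per gene in intron-dominated genes and 956 bases in intron-poor genes.

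The excess of intron came both from more introns and from longer ones. The median intron of a gene was 324 bases in intron-dominated genes and 201.5 bases in intron-poor genes (medians over genes), and the longest intron was 801 bases and 297 bases. An intron of 1000 bases or more was present in 370 intron-dominated genes (35.9%) and in 82 intron-poor genes (1.21%). A single intron seldom made the gene intron-dominated. It held 50% or more of the intron bases in 115 of the 1031 genes (11.2%), and 7 genes had only 1 intron. The longest intron was the first of the gene in 94 of them (9.12%). The median intron share within the set was 64.5%, with an upper quartile of 67.9% and a maximum of 86.7%, so most members lay close above the threshold.

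**Figure D1:**
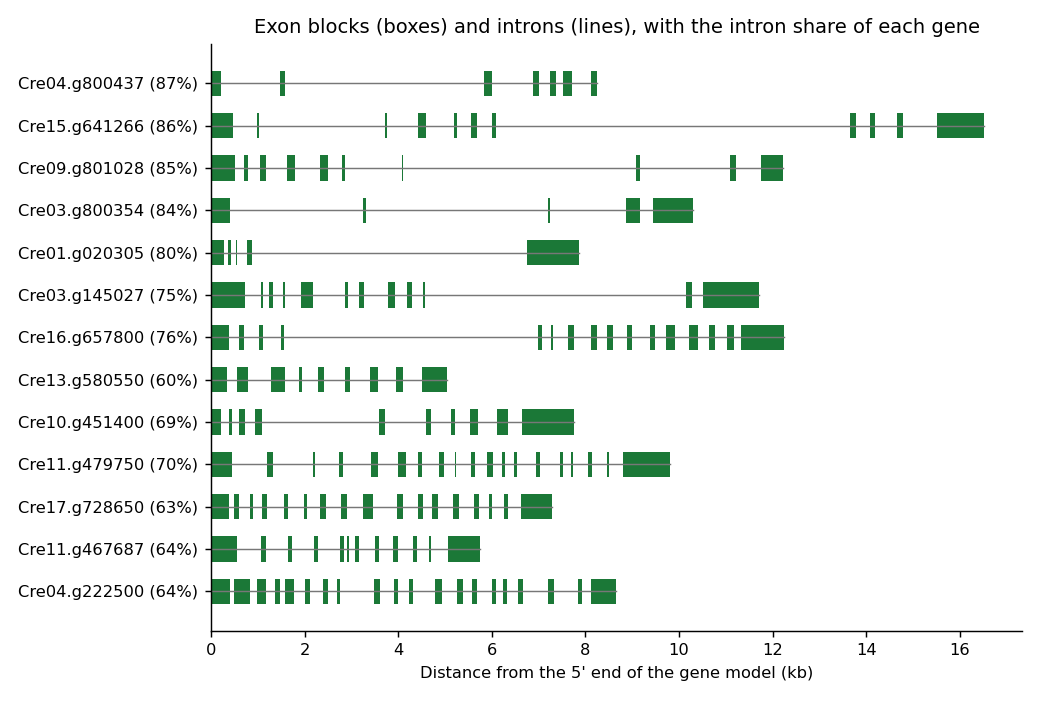
Exon blocks (boxes) and introns (lines) of 13 intron-dominated genes named in the text, drawn to scale from the 5′ end of the gene model in kilobases, with the intron share beside each identifier. In the genes of highest share, introns of several kilobases separate short exon blocks, whereas most of the other genes have many short introns.

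Intron-dominated genes were unevenly placed. On chromosome 15 they made up 56 of 272 genes of eligible structure (20.6%), on chromosome 11 17.0% and on chromosome 4 16.9%, against 4.79% on chromosome 12 and 4.40% on chromosome 3, where 51 of 1160 were members. Members also lay next to each other. Along the gene order, 115 neighbouring pairs were both intron-dominated, and 11.2% of members were followed by another member, where members made up 7.09% of all listed nuclear genes. These are descriptions of the annotation, and genes on a chromosome are not independent. An exon overlapped an exon of a gene on the opposite strand in 342 members (33.2%), against 37.1% of intron-poor genes. Because no source used here says whether counting used the strand, values of such genes are uncertain, and the genes named below as most changed have no exon overlap.

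Of the 1031 genes, 965 had enough counts to be tested (93.6%), and 8 had no count in any library. Per kilobase of exon, intron-dominated genes were the more abundant class. Their median level was 13.0 CPM per kilobase in crpaf1-1, 13.0 in crskip-1 and 12.6 in wild type, against 4.40, 4.50 and 4.64 CPM per kilobase in intron-poor genes of the same 3 genotypes. Over block numbers and exon lengths that both classes share, wild-type levels were near each other, with a median of 11.2 CPM per kilobase in intron-dominated genes and a weighted median of 11.6 in intron-poor genes. That weighted median rests on few genes, since the weights were equal in effect to 55.8 intron-poor genes and 4 genes held 22.2% of the weight. The 1031 genes took 11.5%, 11.7% and 11.8% of all counts in the crpaf1-1 libraries, 10.7%, 10.6% and 10.8% in the crskip-1 libraries, and 9.89%, 10.2% and 10.0% in the wild-type libraries. These shares did not overlap between any 2 genotypes.

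In crpaf1-1, more intron-dominated genes were higher than lower relative to wild type. Of the 965 tested, 380 rose (39.4%), where 28.6% of all genes tested rose, and 215 fell (22.3%), where 29.8% of all genes fell, by edgeR's quasi-likelihood test with Benjamini-Hochberg adjustment at 0.05. Together 595 changed (61.7%, background 58.4%) and 370 did not pass. The shifts were small, with a median log2 fold change of 0.10 over members and 0.01 over all genes tested. Intron-poor genes leaned the other way, with 24.9% higher, 32.0% lower and a median of -0.02, and intermediate genes lay between at 0.04. Changes of 2-fold or more among called genes were found in 15 members upward and 35 downward, 5.18% in all against a background of 8.81%. The values of the 3 crpaf1-1 and the 3 wild-type libraries did not overlap in 641 members (66.4%, background 64.1%). Scaling by library size alone, which set the median of all genes at 0.09, raised the share of higher genes among called members to 74.0%, against 63.9% with TMM scaling.

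**Figure D2:**
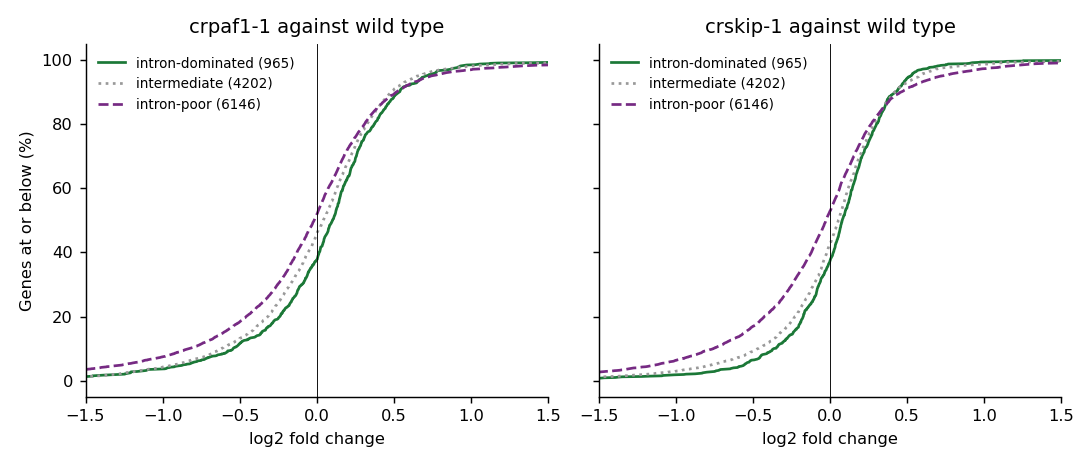
Cumulative share of genes (percent) at or below each log2 fold change, for crpaf1-1 against wild type and crskip-1 against wild type, in intron-dominated (965), intermediate (4202) and intron-poor (6146) genes tested. The intron-dominated curve lies to the right of the intron-poor curve over its lower and middle part, with medians of 0.10 and -0.02 in crpaf1-1 and 0.08 and -0.03 in crskip-1, and the curves meet at higher fold changes.

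Members were named for the highest log2 fold change in crpaf1-1 only if called, with at least 5 CPM in the higher group. They also had to show no exon overlap and no overlap between the libraries of the 2 groups. These traits, and small p-values, thus follow from the naming. The adjusted p of the 6 members ran from 4.18e-10 to 1.73e-07 by edgeR's quasi-likelihood test. Cre13.g580550 (chromosome 13, 2573115 to 2578155, minus strand, 9 exon blocks, intron share 60.4%) had 17.9, 22.9 and 20.7 CPM in crpaf1-1, 11.9, 14.2 and 14.5 in crskip-1, and 10.3, 9.76 and 9.94 in wild type. All crpaf1-1 libraries lay above all others, and crskip-1 lay between them and wild type, giving a 2.04-fold rise in crpaf1-1 (log2 1.03, SE 0.10) and a 1.35-fold rise in crskip-1 (adjusted p = 0.00402). Cre11.g479750 (chromosome 11, 3883304 to 3893105, plus strand, 19 blocks, share 70.1%) had 103.2, 106.9 and 108.0 CPM in crpaf1-1, 62.7, 74.0 and 68.3 in crskip-1, and 55.3, 58.3 and 53.9 in wild type. Its crpaf1-1 values were 1.90-fold those of wild type (log2 0.93, SE 0.06) and stood well apart from both other genotypes. Cre12.g558450 on chromosome 12 (9 blocks, share 60.8%) had the same order, with 76.5, 80.6 and 82.6 CPM in crpaf1-1, 48.7, 50.8 and 53.1 in crskip-1, and 44.1, 40.6 and 41.5 in wild type. Cre10.g429150 on chromosome 10 (10 blocks, share 64.6%) averaged 58.2 ± 4.08 CPM in crpaf1-1, 43.9 ± 4.18 in crskip-1 and 30.8 ± 0.42 in wild type (SD, n = 3 each), again with no overlap between genotypes.

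The members named for a fall in crpaf1-1 had larger log2 changes than those named for a rise, which follows in part from the naming. The limit of 5 CPM applies to the higher group, which is wild type for a fall and crpaf1-1 for a rise. Of the changes of 2-fold or more, 11 of 15 rises but only 6 of 35 falls lay below it. Cre17.g728650 (chromosome 17, 4050780 to 4058061, plus strand, 17 blocks, share 62.6%) had 1.55, 1.22 and 1.67 CPM in crpaf1-1, 3.31, 3.41 and 2.74 in crskip-1, and 5.66, 5.79 and 5.73 in wild type. The 3 genotypes formed separate bands, with crpaf1-1 3.86-fold below wild type (log2 -1.95, SE 0.16). Cre04.g222500 (chromosome 4, 2541603 to 2550258, minus strand, 20 blocks, share 63.8%) had 3.42, 3.02 and 3.11 CPM in crpaf1-1, 5.47, 5.22 and 5.09 in crskip-1, and 9.13, 10.1 and 8.84 in wild type. It was lowest in every crpaf1-1 library, with log2 fold changes of -1.55 (SE 0.12) for crpaf1-1 and -0.83 (SE 0.12) for crskip-1. Cre11.g467950 on chromosome 11 (18 blocks, share 63.5%) averaged 2.27 ± 0.35 CPM in crpaf1-1, 4.19 ± 0.89 in crskip-1 and 6.34 ± 0.15 in wild type. The adjusted p of the 6 members named for their fall in crpaf1-1 ran from 6.80e-09 to 6.25e-07 by edgeR's quasi-likelihood test.

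Rises of 2-fold or more in crpaf1-1 were mostly in faint genes. Of the 15 members concerned, 11 stayed below 5 CPM in the higher group and 5 had an exon overlap. Together these were 14 genes, and Cre13.g580550 was the exception. Among the 35 that fell 2-fold or more, 6 stayed below 5 CPM and 15 had an exon overlap, together 19 genes, and 16 met the conditions set for naming. The exon overlaps counted here are on either strand, and their share over all members was not determined. No excess or deficit is read from them. An exon overlap with the opposite strand alone, a narrower measure, was present in 33.2% of all members. The gene of highest fitted change, Cre16.g801977, was picked after its values were seen. It had 2.4, 2.3 and 1.5 CPM in crpaf1-1, 0.74, 0.53 and 0.86 in crskip-1, and 0.06, 0 and 0 in wild type, so its fitted fold change rests on the prior count and no fold is given. Cre15.g643600, also picked after the fact, overlaps a gene on the opposite strand and had 234.3, 238.5 and 241.9 CPM in crpaf1-1, 108.9, 120.9 and 133.8 in crskip-1, and 103.6, 110.7 and 114.6 in wild type. Only its crpaf1-1 libraries stood apart. Whether reads of the overlapping gene were counted with its own is not known, since strand use in counting is not given.

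In crskip-1 the balance was tilted the same way, with fewer calls. Relative to the same 3 wild-type libraries, 316 members rose (32.7%, background 24.4%) and 153 fell (15.9%, background 25.1%). In all, 469 changed (48.6%, background 49.5%), 496 did not pass, and the median log2 fold change was 0.08, against 0.00 over all genes tested. Intron-poor genes had 22.5% higher, 28.2% lower and a median of -0.03. Only 5 members rose and 17 fell by 2-fold or more (2.28%, background 6.89%), and values did not overlap in 535 (55.4%, background 56.4%). This split turned with the scaling. With library size alone, which set the median of all genes at -0.12, 182 members were higher and 261 lower, and 41.1% of called members were higher, against 67.4% with TMM scaling. The members' median lay 0.07 above that of all genes with TMM, a difference that rescaling leaves nearly as it is by construction.

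Cre01.g020223 (chromosome 1, 3168729 to 3180231, minus strand, 12 blocks, share 65.1%) had the highest fold change in crskip-1 among members that met the naming conditions. It had 3.845, 3.815 and 3.610 CPM in crpaf1-1, 5.94, 6.35 and 5.88 in crskip-1, and 2.49, 1.88 and 3.17 in wild type, and no 2 genotypes overlapped. Its crskip-1 level was 2.38-fold that of wild type (log2 1.25, SE 0.16) and its crpaf1-1 level 1.48-fold (log2 0.57, SE 0.17). Cre01.g800103 (chromosome 1, 5881102 to 5887316, minus strand, 12 blocks, share 75.04%) rose in crskip-1 and did not pass in crpaf1-1. It had 5.39, 5.25 and 5.72 CPM in crpaf1-1, 13.7, 14.0 and 13.8 in crskip-1, and 6.47, 6.36 and 6.22 in wild type. The crskip-1 libraries lay 2.18-fold above wild type (log2 1.12, SE 0.10), and crpaf1-1 lay slightly below wild type at a log2 fold change of -0.22 (adjusted p = 0.0880, edgeR's quasi-likelihood test). Cre07.g351750 on chromosome 7 (7 blocks, share 66.9%) averaged 97.3 ± 3.16 CPM in crpaf1-1, 108.4 ± 6.31 in crskip-1 and 69.2 ± 3.21 in wild type, so that both mutants were above wild type.

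Among members lower in crskip-1, Cre08.g365851 (chromosome 8, 1640051 to 1647620, plus strand, 13 blocks, share 65.6%) had 6.89, 7.95 and 6.61 CPM in crpaf1-1, 5.33, 5.35 and 5.41 in crskip-1, and 14.0, 14.0 and 14.3 in wild type. Both mutants stayed near or below 50% of the wild-type level, with log2 fold changes of -0.98 (SE 0.10) for crpaf1-1 and -1.39 (SE 0.11) for crskip-1. Cre06.g306900 (chromosome 6, 8270445 to 8278907, minus strand, 18 blocks, share 62.0%) had 4.74, 5.78 and 4.89 CPM in crpaf1-1, 1.89, 3.34 and 2.19 in crskip-1, and 6.42, 6.51 and 8.05 in wild type. It was lowest in crskip-1, 2.81-fold below wild type, and crpaf1-1 was 1.37-fold below (adjusted p = 0.0192, edgeR's quasi-likelihood test). The call in crpaf1-1 was lost without replicate 1 or 3 of crpaf1-1 or replicate 3 of wild type, with adjusted p up to 0.108 by the same test. The adjusted p in crskip-1 ran from 1.85e-08 to 6.80e-06 over the 6 members named for a rise and from 1.24e-08 to 2.16e-05 over the 6 named for a fall, by edgeR's quasi-likelihood test.

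Some members moved the same way in both mutants, which share their wild-type libraries, so their values are given side by side only. Cre15.g640250 (chromosome 15, 859760 to 870253, minus strand, 14 blocks, share 67.1%) had 103.3, 110.7 and 108.1 CPM in crpaf1-1, 88.1, 100.4 and 94.3 in crskip-1, and 54.7, 60.5 and 57.9 in wild type. Cre10.g459500 (chromosome 10, 5707106 to 5714845, plus strand, 16 blocks, share 69.3%) had 113.8, 120.0 and 119.4 CPM in crpaf1-1, 111.6, 109.1 and 118.0 in crskip-1, and 68.8, 74.4 and 66.9 in wild type. Cre13.g563200 on chromosome 13 (7 blocks, share 67.0%) averaged 11.8 ± 0.84 CPM in crpaf1-1, 13.3 ± 1.62 in crskip-1 and 7.13 ± 0.57 in wild type (SD, n = 3 each). The naming required that every mutant library of these 3 genes lay above every wild-type library. Their log2 fold changes were 0.73 to 0.90 in crpaf1-1 and 0.69 to 0.90 in crskip-1.

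Among members with no exon overlap, the 3 that fell furthest in both mutants were many-exon genes of a few CPM in the mutants. Cre11.g467687 (chromosome 11, 1198339 to 1204076, minus strand, 12 blocks, share 64.4%) had 2.86, 2.54 and 2.78 CPM in crpaf1-1, 2.57, 3.14 and 1.41 in crskip-1, and 8.26, 9.69 and 7.32 in wild type. Cre16.g660900 (chromosome 16, 20 blocks, share 66.0%) had 3.94, 3.02 and 3.11 CPM in crpaf1-1, 4.59, 5.15 and 3.997 in crskip-1, and 10.0, 9.40 and 9.94 in wild type. Cre16.g693950 (chromosome 16, 19 blocks, share 60.6%) had 3.75, 3.39 and 3.17 CPM in crpaf1-1, 4.25, 4.35 and 3.997 in crskip-1, and 9.02, 10.3 and 10.2 in wild type. The naming likewise required wild type to be above both mutants in all 3. Log2 fold changes were -1.62, -1.53 and -1.505 in crpaf1-1 and -1.79, -1.09 and -1.22 in crskip-1 in the order given.

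**Figure D3:**
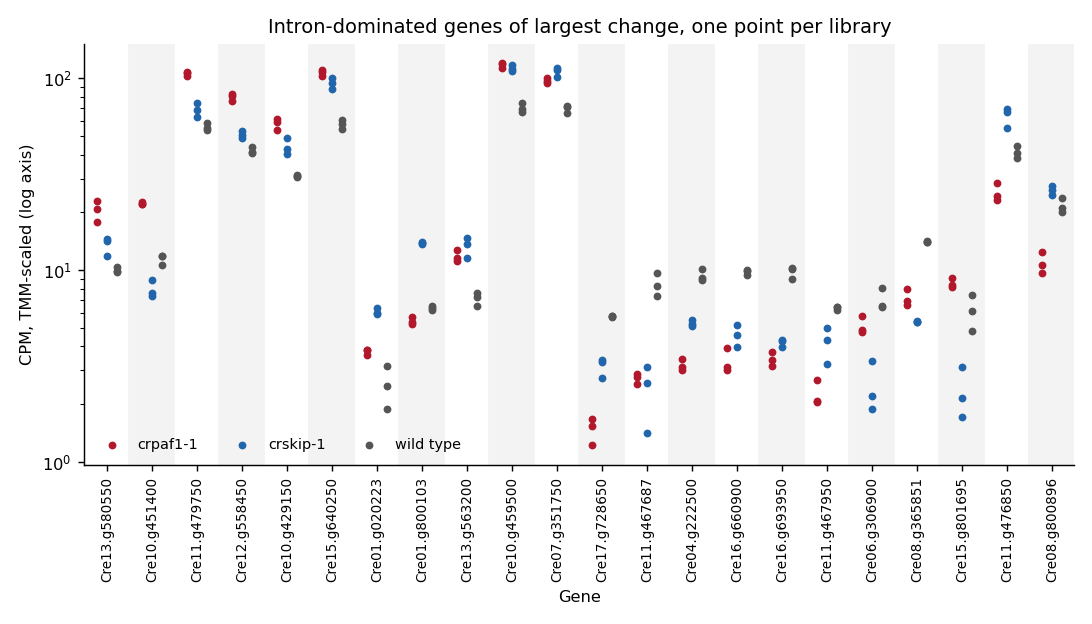
Level of 22 intron-dominated genes named for large changes, in TMM-scaled CPM on a log axis, 1 point per library, with crpaf1-1, crskip-1 and wild type from left to right within each gene. Cre17.g728650 lies lowest in crpaf1-1 at 1.22 to 1.67 CPM, Cre01.g800103 stands out in crskip-1 at 13.7 to 14.0 CPM, and Cre10.g459500 is above wild type in both mutants.

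Between the mutants the members split evenly. Of the 965 tested, 264 had more counts in crpaf1-1 than crskip-1 (27.4%, background 25.7%) and 273 had fewer (28.3%, background 28.2%). In all, 537 differed (55.6%, background 53.8%), 39 of them by 2-fold or more (4.04%, background 6.97%), and values did not overlap in 597 (61.9%, background 59.3%). The median log2 fold change of crpaf1-1 over crskip-1 was -0.01 over members. With library size alone, which set the median of all genes at 0.20, 490 were higher and 102 lower, so that 82.8% of differing members were higher in crpaf1-1, against 49.2% with TMM scaling. Over the 3 comparisons, 734 members (76.1%) changed in at least 1 mutant against wild type, where 73.8% of all genes tested did, and 187 (19.4%) passed in none, where 21.6% of all genes did.

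Individual members differed sharply between the mutants, some with opposite directions against wild type. Cre10.g451400 (chromosome 10, 4534428 to 4542180, plus strand, 10 blocks, share 69.3%) had 22.0, 22.7 and 22.0 CPM in crpaf1-1, 8.85, 7.35 and 7.60 in crskip-1, and 10.6, 11.9 and 11.9 in wild type. It rose 1.94-fold in crpaf1-1 and fell 1.44-fold in crskip-1, and crpaf1-1 was 2.80-fold above crskip-1 (log2 1.48, SE 0.09, adjusted p = 5.26e-10, edgeR's quasi-likelihood test). Cre15.g801695 (chromosome 15, 840141 to 844807, minus strand, 11 blocks, share 62.8%) had 9.10, 8.21 and 8.33 CPM in crpaf1-1, 2.16, 3.14 and 1.72 in crskip-1, and 7.46, 6.15 and 4.82 in wild type. Its crskip-1 libraries were far below the other 6, and crpaf1-1 was 3.604-fold above crskip-1 (log2 1.85, SE 0.19). Against wild type it was 1.39-fold higher in crpaf1-1 (adjusted p = 0.0137), a call lost without replicate 1 of crpaf1-1 or replicate 3 of wild type (adjusted p up to 0.0966, edgeR's quasi-likelihood test).

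The converse pattern was seen in Cre11.g476850 (chromosome 11, 3357038 to 3363245, plus strand, 12 blocks, share 63.8%). It had 23.2, 24.2 and 28.5 CPM in crpaf1-1, 55.3, 66.6 and 69.1 in crskip-1, and 41.0, 44.3 and 38.5 in wild type. The 3 genotypes did not overlap, and the gene fell 1.63-fold in crpaf1-1 and rose 1.54-fold in crskip-1. Cre08.g800896 (chromosome 8, 767258 to 777746, plus strand, 17 blocks, share 71.3%) had 10.6, 9.64 and 12.5 CPM in crpaf1-1, 24.6, 26.01 and 27.4 in crskip-1, and 21.0, 23.9 and 20.1 in wild type. It fell 1.98-fold in crpaf1-1 and rose 1.20-fold in crskip-1 (adjusted p = 0.0202), and the mutants differed by a log2 fold change of -1.25 (SE 0.09) for crpaf1-1 over crskip-1, by edgeR's quasi-likelihood test. Its call in crskip-1 was lost without replicate 3 of crskip-1 or replicate 1 or 3 of wild type (adjusted p up to 0.106, same test). Adjusted p between the mutants ran from 5.26e-10 to 0.000180 over the 3 members named as higher in crpaf1-1 and from 2.00e-09 to 7.95e-09 over the 3 named as lower, by the same test.

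The call rates moved with intron share, in crpaf1-1 mainly above a share of 40%. In crpaf1-1, the share of genes higher than wild type was 25.3% at an intron share below 10%, stayed at 24.8% to 25% up to 40%, and was 29.8% at 40% to 50%, 34.8% at 50% to 60%, 38.6% at 60% to 70% and 43.2% at 70% to 80%. The share of lower genes was 27.6% below 10%, 33.5% at 30% to 40% and 19.7% at 70% to 80%, and so did not move in 1 direction. In crskip-1 the share of higher genes was 19.5% below 10% and 33.3% at 70% to 80%, while that of lower genes was 30.5% and 14.4% in the same 2 classes. There was no step at 60%. Block number and exon length moved along with it, since the median number of blocks was 2 in the lowest class and 12 at 60% to 80%. Only 9 tested genes had a share of 80% or more, too few for a trend.

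**Figure D4:**
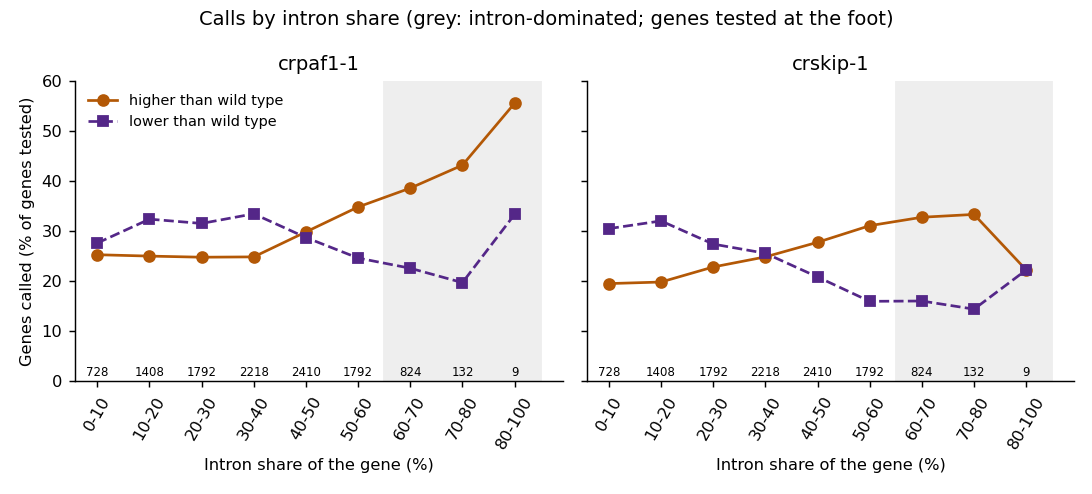
Share of tested genes called higher (circles) or lower (squares) than wild type by edgeR's quasi-likelihood test, in percent, against the intron share of the gene, for crpaf1-1 (left) and crskip-1 (right), with the number of genes tested at the foot. Both higher curves are upward from 40% intron share, reaching 43.2% in crpaf1-1 and 33.3% in crskip-1 at 70% to 80%, and the last class holds 9 genes.

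Set against intron-poor genes of equal block number and exon length, members had higher median fold changes in both mutants, by more in crpaf1-1 than in crskip-1. Genes were grouped by exact block number and 500-base steps of exon length, and the intron-poor genes were weighted to the distribution of the members. In the 59 classes that held both kinds were 469 members and 1938 intron-poor genes. The median log2 fold change in crpaf1-1 was 0.12 in members and -0.36 in weighted intron-poor genes, a difference of 0.48, with 39.0% of members and 16.4% of intron-poor genes higher and 19.6% and 55.7% lower. In crskip-1 the medians were 0.08 and 0.01, a difference of 0.07, with 33.3% of members and 27.7% of intron-poor genes higher and 15.8% and 35.9% lower. For crpaf1-1 over crskip-1 the difference was 0.17. Exon structure was near equal in these classes, with a median exon block of 217 and 225 bases, while introns held 3922 and 1296 bases. The weighted intron-poor genes lay near the 40% limit. Their median intron share was 38.2%, against 25.7% over all intron-poor genes tested. Their crpaf1-1 median of -0.36 was also below the unweighted -0.03 of all tested genes with shares of 30% to 40%. The 0.48 is therefore not a contrast with typical intron-poor genes.

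The size of the crpaf1-1 difference rested on few intron-poor genes. Intron-poor genes with as many blocks as the members are rare, the weights were equal in effect to 55.8 genes, and 4 genes held 22.2% of the weight. Restricted to classes with at least 5 intron-poor genes (269 members, 1901 intron-poor genes), the difference was 0.21 in crpaf1-1, 0.04 in crskip-1 and 0.16 between mutants. With at least 10 it was 0.23, 0.10 and 0.11. With no classes it was 0.12 in crpaf1-1, 0.11 in crskip-1 and -0.01 between mutants, so no contrast between the mutants remained without the classes. With intron-poor genes limited to a share below 30%, the difference was 0.10 in crpaf1-1, -0.02 in crskip-1 and -0.06 between mutants. The other 496 members, with a median of 14 blocks, had no intron-poor counterpart, and their medians were 0.07 in crpaf1-1 and 0.08 in crskip-1.

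The same difference could be read in each library, as the median of members minus the weighted median of intron-poor genes, each gene taken on the log2 CPM scale relative to its mean over 9 libraries. It was 0.22, 0.20 and 0.22 in crpaf1-1, -0.04, -0.02 and 0.09 in crskip-1, and -0.13, -0.18 and -0.18 in wild type. The 3 genotypes did not overlap. Because each gene is centred on its mean, the values balance around 0 by construction. With at least 5 intron-poor genes per class the means were 0.12 ± 0.02 in crpaf1-1, -0.01 ± 0.04 in crskip-1 and -0.11 ± 0.01 in wild type (SD, n = 3 each). With no classes they were 0.04 ± 0.02, 0.04 ± 0.02 and -0.08 ± 0.03, and the mutants overlapped each other but not wild type.

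**Figure D5:**
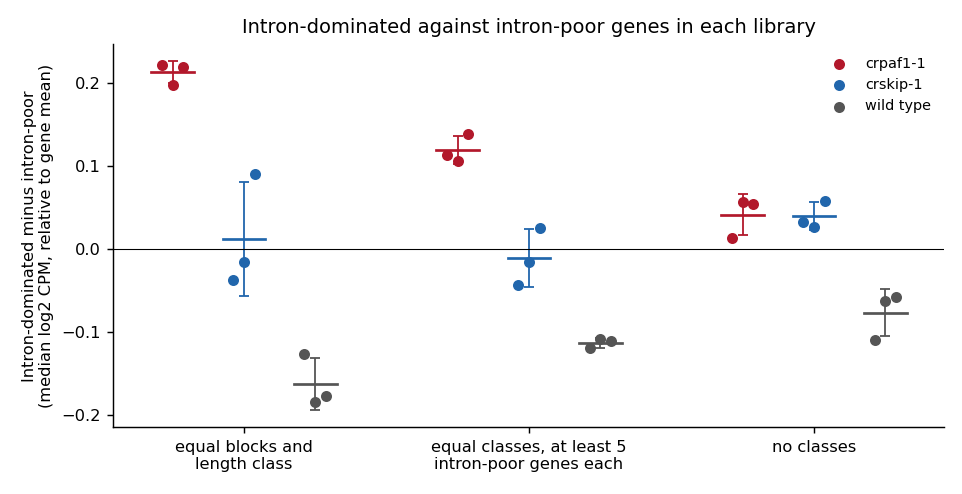
Median of intron-dominated minus median of intron-poor genes in each library (log2 CPM relative to the gene's mean over 9 libraries), for 3 ways of weighting the intron-poor genes. Points are libraries of crpaf1-1, crskip-1 and wild type from left to right, bars are means and whiskers SD (n = 3), and wild type is the lowest genotype in all 3 settings, at -0.18 to -0.06.

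Expression level moved with the result as well. Members were over-represented among abundant transcripts, with 345 of 965 (35.8%) among the top 25% of all genes tested by mean expression. In that class 53.6% of members were higher in crpaf1-1 and 14.8% lower, against 27.5% and 41.1% of intron-poor genes. The background of all genes tested there was 36.8% higher and 31.5% lower, nearer to the members than the intron-poor rates. In crskip-1 the same class had 48.7% of members higher and 11.01% lower, against 38.4% and 24.6% of intron-poor genes (background 40.6% and 19.8%). In the bottom 25% of genes, 22.4% of 161 members were higher in crpaf1-1 and 29.2% lower, near the 21.2% and 28.8% of intron-poor genes there. Across the 965 members, Spearman's rho between mean expression and log2 fold change was 0.18 for crpaf1-1 and 0.24 for crskip-1. The part of expression level, and with it the power of the test, in the call rates was not tested beyond these values and an expression-weighted difference of 0.28 in crpaf1-1.

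Within the set, correlations between structure and fold change were weak. Over the 965 members, which share libraries and depth, rho with log2 fold change was 0.05 for crpaf1-1 and 0.03 for crskip-1 with intron share, and 0.09 and 0.04 for the length of the longest intron. Of the structural measures it was highest for the gene's median intron length, at 0.13 for crpaf1-1 and 0.06 for crskip-1, and 0.11 for crpaf1-1 over crskip-1. The 59 members with 2 to 5 blocks had 44.1% higher and 11.9% lower in crpaf1-1, and 44.1% higher and 8.47% lower in crskip-1. Intron-poor genes with 2 to 5 blocks had 27.7% and 27.1% in crpaf1-1, and 23.1% and 27.5% in crskip-1. The 608 members with 11 to 20 blocks had 40.1% higher and 23.7% lower in crpaf1-1, and 32.2% and 16.4% in crskip-1. Intron-poor genes with 11 to 20 blocks had 19.2% and 43.3% in crpaf1-1, and 18.0% and 33.1% in crskip-1. Members with a longest intron of 3000 bases or more, 44 in number, had 43.2% higher and 31.8% lower in crpaf1-1. The 618 whose longest intron was under 1000 bases had 37.7% and 22.8%, and intron-poor genes with such introns 24.9% and 31.9%. The rates of the small classes were not tested against each other. On every one of the 17 chromosomes the median log2 fold change of the members was above 0 in both mutants, from 0.02 on chromosome 14 to 0.17 on chromosome 12 in crpaf1-1. These medians hold for TMM scaling, and medians of other genes by chromosome were not set beside them. With library size alone, the median over all members in crskip-1 was -0.04, where all genes tested had -0.12.

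The most abundant members per kilobase were short genes with few introns, and they changed little. Cre12.g514500 (chromosome 12, 3786628 to 3788525, plus strand, 4 blocks, share 81.0%), which overlaps a gene on the opposite strand, averaged 2849 ± 98.7 CPM per kilobase in crpaf1-1, 3214 ± 20.3 in crskip-1 and 2582 ± 169.4 in wild type (SD, n = 3 each). Cre02.g075700 on chromosome 2 averaged 2225 ± 34.1 CPM per kilobase in crpaf1-1, 2453 ± 9.21 in crskip-1 and 1899 ± 93.2 in wild type, and Cre06.g272950 and Cre06.g282500 on chromosome 6 averaged 1765 and 2013 in wild type. All 4 rose in crskip-1, with log2 fold changes of 0.28 to 0.37. In crpaf1-1, 3 rose by 0.14 to 0.23, of which the call of Cre12.g514500 was lost without replicate 3 of crpaf1-1 or replicate 1 or 3 of wild type, and Cre06.g282500 had 0.04 (adjusted p = 0.576, edgeR's quasi-likelihood test).

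The members of highest intron share included both rising and falling genes. Cre04.g800437 (chromosome 4, 581658 to 589910, minus strand, 7 blocks, share 86.7%) was faint, with 1.31, 0.95 and 1.17 CPM in crpaf1-1, 0.47, 0.60 and 1.02 in crskip-1, and 0.40, 0.22 and 0.55 in wild type. Only crpaf1-1 stood clear of wild type (log2 1.51, SE 0.37, adjusted p = 0.00210, edgeR's quasi-likelihood test). Cre15.g641266 (chromosome 15, 1373528 to 1390037, plus strand, 11 blocks, share 85.8%) holds the longest intron of the set, its intron number 7 with 7571 bases. It had 13.2, 11.9 and 12.8 CPM in crpaf1-1, 11.2, 14.2 and 9.48 in crskip-1, and 9.25, 10.3 and 9.39 in wild type, and rose in crpaf1-1 (log2 0.39, SE 0.12) while crskip-1 overlapped wild type and passed only without crskip-1 replicate 3 (adjusted p = 0.0102, edgeR's quasi-likelihood test). Cre09.g801028 (chromosome 9, 2893264 to 2905487, plus strand, 10 blocks, share 85.0%) went the other way, with 10.4, 9.22 and 9.72 CPM in crpaf1-1, 11.5, 13.1 and 14.0 in crskip-1, and 16.1, 15.5 and 15.7 in wild type. It fell in crpaf1-1 by 0.68 on the log2 scale and in crskip-1 by 0.29, a call lost without crskip-1 replicate 1. Cre03.g800354 on chromosome 3 (5 blocks, share 83.9%) had 12.2, 10.97 and 10.9 CPM in crpaf1-1, 8.64, 10.5 and 10.4 in crskip-1, and 7.46, 9.04 and 8.60 in wild type, with a rise of 0.45 (SE 0.11) in crpaf1-1. In crskip-1 it passed only without crskip-1 replicate 1 (adjusted p = 0.0350, edgeR's quasi-likelihood test).

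The other members named for single introns of more than 5 kilobases differed by at most 1.40-fold between any 2 genotypes. Cre01.g020305 on chromosome 1, whose last intron of 5870 bases makes up 93.7% of its intron sequence, had 172.1, 177.3 and 170.2 CPM in crpaf1-1, 223.4, 196.1 and 209.9 in crskip-1, and 190.5, 191.4 and 187.8 in wild type. Exons of 2 genes of the other strand overlap it, and it fell slightly in crpaf1-1 and rose slightly in crskip-1 (log2 -0.13 and 0.14), calls that were each lost on leaving out single libraries (replicate 1 or 3 of crpaf1-1 and 1 or 2 of wild type for the fall, replicate 1 of crskip-1 and 1 or 3 of wild type for the rise). Cre03.g145027 on chromosome 3, with an intron of 5572 bases, averaged 14.2 ± 0.80 CPM in crpaf1-1, 10.1 ± 0.62 in crskip-1 and 12.2 ± 0.45 in wild type, and its calls against wild type were lost in 5 and 3 of the 9 fits that left out 1 library, in crpaf1-1 and crskip-1. Cre16.g657800 on chromosome 16, with an intron of 5430 bases, averaged 10.3 ± 0.28, 10.0 ± 0.17 and 10.9 ± 1.26 CPM in crpaf1-1, crskip-1 and wild type and passed in no comparison. Exons of 2 other genes overlap Cre16.g657800, 1 of them on the opposite strand. Exons of 1 gene on the same strand overlap Cre03.g145027.

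A whole gene lies inside an intron of 4 members. Cre09.g410650 (chromosome 9, 5724886 to 5738710, plus strand) holds Cre09.g410600 on the opposite strand in an intron of 4766 bases. The host averaged 146.5 ± 2.88 CPM in crpaf1-1, 116.9 ± 1.81 in crskip-1 and 93.1 ± 2.92 in wild type, while the inner gene averaged 373.2 ± 5.12, 510.2 ± 12.0 and 464.4 ± 6.88 CPM. The host rose and the inner gene fell in crpaf1-1, with log2 fold changes of 0.65 (SE 0.05) and -0.32 (SE 0.04), and both rose in crskip-1, by 0.33 and 0.14. In Cre16.g658526 on chromosome 16, whose inner gene Cre16.g801906 is on the same strand, host and inner gene both rose in crpaf1-1, with log2 fold changes of 1.04 and 0.31. Exons of 1 gene on the same strand overlap exons of this host. In Cre33.g758997 on chromosome 8 the inner gene fell in crpaf1-1 (log2 -0.37) and the host had 0.13 (adjusted p = 0.272, edgeR's quasi-likelihood test).

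At the threshold itself, neighbours behaved as variously as the rest. The 3 members just inside 60%, Cre13.g588250, Cre01.g800035 and Cre11.g469600, had log2 fold changes of -1.21, 0.36 and 0.33 in crpaf1-1 and -0.65, 0.48 and 0.52 in crskip-1. The 3 genes just outside it, Cre09.g401750, Cre16.g674550 and Cre06.g300550, had shares of 59.96% to 59.99%. Their values were -0.02, -0.85 and 0.32 in crpaf1-1 and 0.22, -0.35 and 0.22 in crskip-1. In crpaf1-1, Cre11.g469600 (adjusted p = 0.0731) and Cre09.g401750 (adjusted p = 0.817) did not pass by edgeR's quasi-likelihood test. The crskip-1 calls of Cre11.g469600, Cre09.g401750, Cre16.g674550 and Cre06.g300550 were each lost on leaving out single libraries.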

How the data were processed

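The 9 files hold whole-number read counts per gene, which the authors made with Bowtie2 and featureCounts per the submitters' processing notes (versions not given in the sources used here). Alignments were limited to uniquely mapped reads with duplicates removed, per the file headers. No source used here says whether counting was strand-aware. Reads over exon junctions are not split by Bowtie2, and the members' exon blocks are short. What this does to their levels, fold changes and call rates was not tested. The labels name the molecule as genomic DNA, whereas their protocol describes messenger RNA libraries.

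Gene models were rebuilt from the intervals in the deposited count files, whose identifiers carry no gene names. Promoters and roles of members were not analysed here. All 9 libraries entered 1 fit with edgeR 4.0.16 (R 4.3.3, TMM scaling, filterByExpr, quasi-likelihood F test, no covariates), with Benjamini-Hochberg adjustment over 13376 genes tested. The script was tested on simulated data. CPM values are TMM-scaled, SE is the log2 fold change divided by the root of F, and log2 CPM per library used a prior count of 2. Per the file headers, replicate 1 of every genotype came from lane 3 and replicates 2 and 3 from lane 2.

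Named genes were the 6 highest and 6 lowest fold changes in each mutant, the 3 highest and 3 lowest between mutants, and the 3 that rose and 3 that fell furthest in both mutants, all among called members with at least 5 CPM in the higher group, no overlap between libraries and no exon overlap. To these were added the 4 most abundant per kilobase, the 4 of highest intron share, the 4 with the longest intron, and 3 genes on each side of the threshold. Members, lists and naming rule were chosen with earlier results of these data known. Alternatives comprised DESeq2 1.42.0 (size factors and Wald test), library size alone, no filter, a replicate block, 1 library left out, lane 2 alone, other thresholds and other classes of intron-poor genes.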

Additional observations from a re-analysis of the deposited data

Results flagged for a closer look

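The 2 mutants differed from each other in 28 of 39 named genes by edgeR's quasi-likelihood test of crpaf1-1 against crskip-1 (adjusted p from 5.26e-10 to 0.0454), where 53.8% of all genes tested differed. The genes were named for the size of their changes, and 6 for this difference itself, so the count is partly set by the naming. They are listed because their effect against the shared wild type then differs between the mutants. All values are log2 fold changes of crpaf1-1 over crskip-1. Higher in crpaf1-1 were Cre15.g801695 at 1.85, Cre10.g451400 at 1.48 and Cre06.g306900 at 1.04. Smaller positive values were seen in Cre12.g558450 at 0.65, Cre11.g479750 at 0.63, Cre13.g580550 at 0.60, Cre03.g145027 at 0.49, Cre08.g365851 at 0.41, Cre10.g429150 at 0.41 and Cre15.g640250 at 0.19. Lower in crpaf1-1 by more than 2-fold were Cre01.g800103 at -1.34, Cre11.g476850 at -1.33, Cre08.g800896 at -1.25 and Cre17.g728650 at -1.10. Then followed Cre11.g467950 at -0.89, Cre04.g222500 at -0.72, Cre01.g020223 at -0.69, Cre13.g588250 at -0.56 and Cre16.g660900 at -0.45. Cre16.g674550 at -0.50 and Cre09.g401750 at -0.25 lie just outside the threshold of intron share. Cre09.g801028 had -0.39, Cre06.g282500 -0.30, Cre01.g020305 -0.28 and Cre12.g514500 -0.17. The smallest negative values were those of Cre07.g351750 at -0.16, Cre02.g075700 at -0.14 and Cre06.g272950 at -0.10. With single libraries left out, the call of Cre06.g272950 was lost in 6 of 9 fits, that of Cre07.g351750 in 4, that of Cre16.g660900 in 3, and those of Cre09.g401750 and Cre15.g640250 in 1 each. The call of Cre06.g272950 was also lost with DESeq2, with no filter and in lane 2 alone, and library size alone turned it to 0.10 (adjusted p = 0.0172, edgeR's quasi-likelihood test). Groups of 3 libraries were not searched for single outlying libraries.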

How the results depend on the processing

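Counts of called members stayed within 1.5 times under every alternative run except 3. An intron share of 70% or more left 62 higher and 29 lower in crpaf1-1 and 46 and 21 in crskip-1. Between mutants it left 39 and 34. Leaving out overlapping genes left 215 and 116, 171 and 83, and 136 and 146 in the same order. In both cases fewer genes were tested, so the counts alone do not show a fall in rate. At a share of 70% to 80%, 43.2% of 132 tested members were higher in crpaf1-1 and 19.7% lower, against 39.4% and 22.3% of all 965. Library size alone gave 182 higher and 261 lower in crskip-1 and 490 and 102 between mutants. In lane 2 alone there were 322 and 194, 255 and 131, and 240 and 233. Leaving out 1 library gave 318 to 388 higher and 190 to 217 lower in crpaf1-1, 264 to 305 and 127 to 159 in crskip-1, and 222 to 267 and 241 to 276 between mutants. The difference from intron-poor genes in crpaf1-1 (0.48) was 0.43 with the DESeq2 Wald test, 0.43 without a filter, 0.36 without overlapping genes, 0.44 with the nearest intron-poor gene, 0.28 with an expression class added, 0.10 with a share below 30% and 0.41 to 0.49 with 1 library left out. Alternatives chosen after seeing the data gave 0.21 and 0.23 with at least 5 and 10 intron-poor genes per class, 0.10 with Length alone and 0.12 with no classes. In crskip-1 it turned to -0.080 at an intron share of 70% or more and -0.015 with a share below 30%. Between mutants it was 0.29 and -0.062 under the same settings, 0.11 with at least 10 per class, 0.0050 with Length alone and -0.0075 with no classes, and the cause was not tested.

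Of the named genes' values, those for crpaf1-1 over crskip-1 turned positive with library size alone in Cre13.g563200 (0.030), Cre07.g351750 (0.051), Cre12.g514500 (0.033), Cre02.g075700 (0.066), Cre06.g272950 (0.10), Cre01.g800035 (0.086) and Cre11.g469600 (0.017), and those for crpaf1-1 against wild type in Cre16.g657800 (0.0081) and Cre09.g401750 (0.059). With 1 library left out, values around 0 changed sign in Cre11.g467687 (-0.066 to 0.43) and Cre15.g641266 (-0.013 to 0.28) between mutants, and in Cre06.g282500 (-0.013 to 0.10), Cre16.g657800 (-0.16 to 0.0061) and Cre09.g401750 (-0.071 to 0.042) in crpaf1-1.

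With the replicate block 399 members were higher and 226 lower in crpaf1-1, 338 and 161 in crskip-1, and 279 and 294 between mutants. Same-numbered libraries correlated at 0.26, 0.03 and -0.05 for crpaf1-1 and wild type, 0.12, -0.02 and 0.08 for crskip-1 and wild type, and 0.18, 0.06 and 0.13 between the mutants. Between the mutants each library correlated best with its own number, but not every value passed 0.1, so the numbers were not taken as pairs. Short exon blocks, depth at a few CPM and unknown strand use limit single genes.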
